A study of Homo sapiens with 6 samples.

Results

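The Mediator complex genes were taken as every row of the deposited gene table whose symbol was MED followed by a number, with or without a final L, together with CDK8, CDK19 and CCNC. This gave 33 genes of 29435 rows. The cells carry the label HepG2, an established human hepatoma line, and were given saikosaponin A (SsA, 20 µM) or DMSO alone for 4 h before RNA was sequenced. Saikosaponin A is a triterpenoid saponin from Bupleurum root. Each group had 3 libraries of poly(A)-selected RNA from unmodified cells, and the labels name no genetic change in either group. Whether replicates came from separate cultures is not stated, and p-values here reflect the spread between these libraries alone, which may be technical.

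Mediator is the large coactivator that bridges DNA-bound transcription factors and RNA polymerase II at promoters. Its head and middle modules contact the polymerase, its tail module contacts many activators, and MED14 is the scaffold that joins them. A separable kinase module, made of CDK8 or its paralog CDK19, cyclin C (CCNC), MED12 or MED12L, and MED13 or MED13L, binds the core reversibly and competes with polymerase for it. In liver, Mediator is known as a coactivator of nuclear receptors and of the sterol-responsive SREBP factors. The place of MED27, MED28, MED29 and MED30 differs between published schemes, and here they were counted with the tail.

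Total counts were 58955482 to 69567633 in the SsA libraries and 57768359 to 74912492 in the DMSO libraries. SsA replicate 1 and DMSO replicate 3 stood apart from the other 4 libraries. Genes of the mitochondrial genome held 18.8% and 14.9% of all counts in those 2 libraries, against 7.62% and 8.28% in the other SsA libraries and 6.36% and 6.19% in the other DMSO libraries. The chi-squared value per gene was 15.5 between DMSO replicates 1 and 2 and 15.2 between SsA replicates 2 and 3. For the other pairs within a group it was 329 to 428. Fits on the 4 libraries of lower mitochondrial share thus rest on a small spread, which makes their p-values small. The labelled cell type was not borne out by its markers. Of 15 hepatocyte markers 8 had a row, among them the transcription factor gene HNF4A, and all 8 averaged below 0.1 FPKM. Their summed level was 0.0184 to 0.0734 FPKM in SsA and 0.0599 to 0.0852 FPKM in DMSO. Of 5 fibroblast and stellate cell markers with a row, 3 averaged at least 1 FPKM, and none of the endothelial, leukocyte or keratinocyte markers with a row did. FPKM is the authors' count scaled to gene length and library depth.

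The promoters of the 2 subunit genes that fell most and of the 2 that rose most are shown side by side. Whether promoter sequence bears on the response was not tested. They are RefSeq windows on GRCh38.p14, from 250 bases before to 50 bases after the gene start, written 5′ to 3′ on the gene's strand. Capitals mark the 8 motifs searched on both strands. MED13L lies at chr12:116277644-116277943 on the minus strand, MED12 at chrX:71118346-71118645 on the plus strand, MED10 at chr5:6378498-6378797 on the minus strand and MED11 at chr17:4731178-4731477 on the plus strand.
MED13L: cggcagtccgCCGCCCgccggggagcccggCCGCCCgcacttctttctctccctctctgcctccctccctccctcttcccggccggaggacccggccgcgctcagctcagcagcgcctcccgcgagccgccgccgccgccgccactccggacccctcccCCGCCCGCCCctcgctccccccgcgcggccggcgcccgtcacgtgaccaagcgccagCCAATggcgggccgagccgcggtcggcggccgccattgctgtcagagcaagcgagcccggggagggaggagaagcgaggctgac
MED12: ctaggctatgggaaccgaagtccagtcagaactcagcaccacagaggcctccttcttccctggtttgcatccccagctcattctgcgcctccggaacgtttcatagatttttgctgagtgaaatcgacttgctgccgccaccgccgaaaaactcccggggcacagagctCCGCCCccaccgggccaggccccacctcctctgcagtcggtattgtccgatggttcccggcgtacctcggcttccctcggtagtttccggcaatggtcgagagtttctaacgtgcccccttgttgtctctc
MED10: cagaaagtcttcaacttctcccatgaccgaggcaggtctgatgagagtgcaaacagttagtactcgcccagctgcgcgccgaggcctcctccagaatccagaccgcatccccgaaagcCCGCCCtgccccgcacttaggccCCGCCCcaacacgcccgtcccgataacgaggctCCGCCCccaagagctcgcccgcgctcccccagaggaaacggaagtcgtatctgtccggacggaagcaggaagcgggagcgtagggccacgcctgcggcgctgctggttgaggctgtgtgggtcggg
MED11: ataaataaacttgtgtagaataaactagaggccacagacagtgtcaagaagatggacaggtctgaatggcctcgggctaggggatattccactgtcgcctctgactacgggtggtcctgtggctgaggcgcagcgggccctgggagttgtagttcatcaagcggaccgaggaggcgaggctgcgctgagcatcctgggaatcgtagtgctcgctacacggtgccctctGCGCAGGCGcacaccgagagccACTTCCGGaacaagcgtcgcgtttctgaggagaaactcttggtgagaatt

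The MED13L window held 1 CCAAT box and 4 GC boxes, 2 of them overlapping, the MED12 window 1 GC box, the MED10 window 3 GC boxes, and the MED11 window 1 NRF1 and 1 ETS match. Promoter windows were matched by symbol for 25 of the 33 members. No window was matched for MED6, MED8, MED13, MED14, MED21, MED22, MED28 and MED30. The GC box (GGGCGG) was in 15 of the 25 windows, against 45% of all 35116 windows, which include those of noncoding genes. The CCAAT box (CCAAT) was in 10 of 25, against 34.6% of all. An ETS match (CCGGAAGT) was found in 6 of 25, against 4.14% of all, and an NRF1 match (GCGCANGCG) in 5 of 25, against 7.52%. A YY1 match (AAGATGGCG) was in 4, against 1.75%, a TATA box (TATAAA) in 2, against 11.5%, an AP-1 match (TGANTCA) in 2, against 7.71%, and a CRE (TGACGTCA) in 1, against 1.85%. Split by response, the ETS match was in 1 of 6 windows of subunits that rose, 1 of 7 that fell and 4 of 11 that did not pass. In the same order the CCAAT box was in 2 of 6, 5 of 7 and 2 of 11, and the GC box in 4 of 6, 5 of 7 and 6 of 11. Each other motif was in at most 1 window of those that rose and 1 of those that fell. Differences between these shares were not tested. A match is a description of these letters, not a site.

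Mediator transcripts divided after SsA. MED12, MED13, MED13L and CDK19 of the kinase module and the nuclear receptor-binding subunit MED1 fell relative to DMSO. Of the short head and middle subunits some rose, among them MED10 and MED11, while MED22 and MED26 fell and the others did not pass. Genes with at least 1 FPKM in at least 3 libraries entered edgeR's quasi-likelihood fit, and a gene was called where its p, adjusted by Benjamini and Hochberg's method, was below 0.05. Of the 33 members 32 passed this filter, and MED12L did not. Of the 32, 8 rose and 9 fell, 17 in all, beside calls in 53.8% of all 11427 genes tested. Rises made up 25% of the members and 25.9% of all genes, and falls 28.1% of the members and 27.9% of all genes. The share of members that changed was thus near the background, and the account below concerns which subunits changed. The median log2 fold change of the members was -0.04, beside 0.03 for all genes. All 17 calls had groups that did not overlap, and over the 32 members the groups did not overlap in 62.5%, beside 62.8% of all genes. Only MED13L changed by at least 2-fold.

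**Figure D1:**
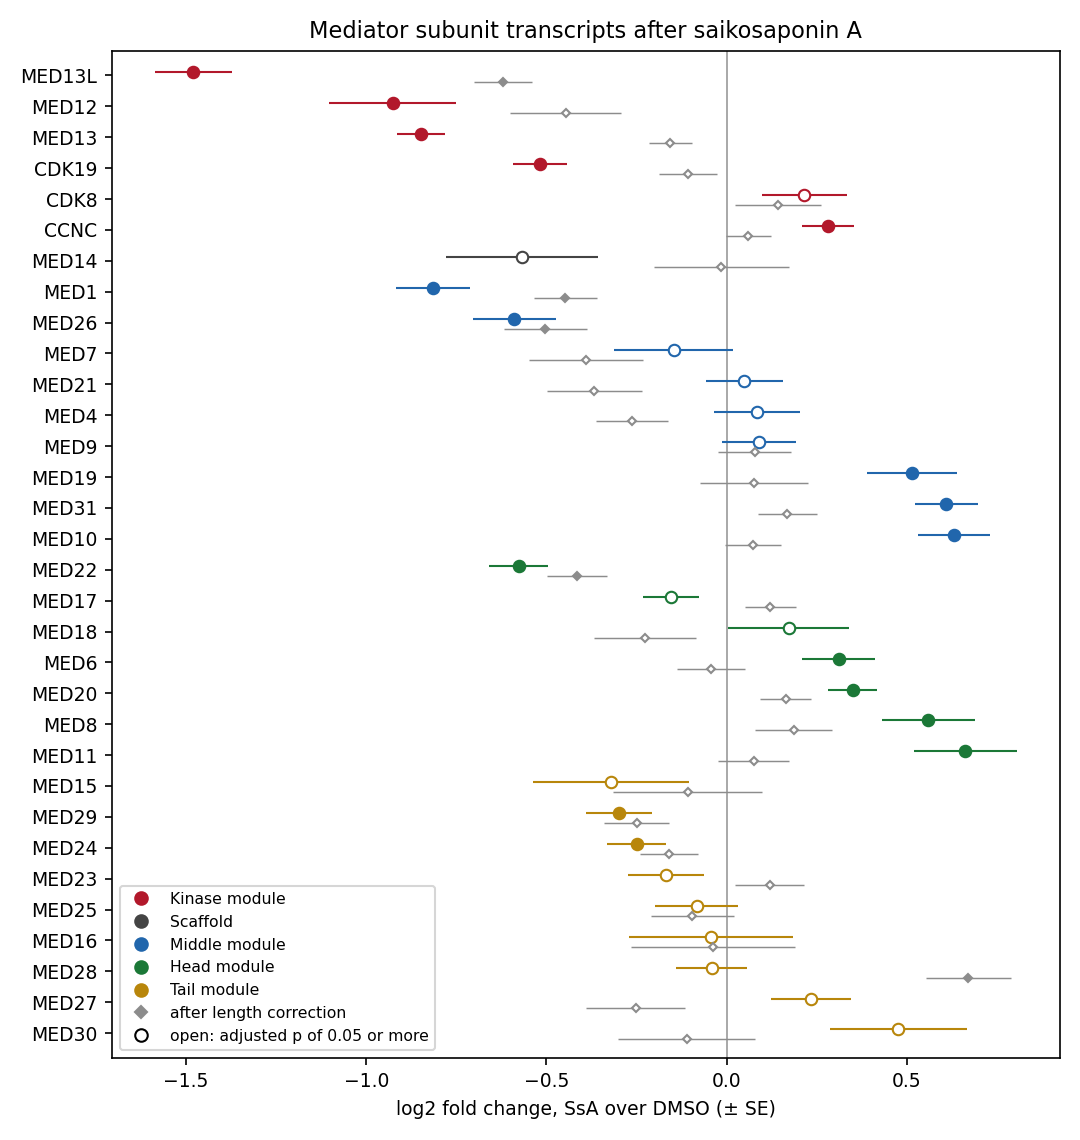
Log2 fold change of each tested Mediator subunit, SsA over DMSO, with its standard error (3 libraries per group), ordered by module; coloured circles are the edgeR values, grey diamonds the values after the correction for transcript length, and filled symbols have an adjusted p below 0.05. MED13L lies farthest to the left at -1.48 and MED11 farthest to the right at 0.66, and after the correction 5 subunits have filled diamonds.

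The kinase module held the largest falls. Of its 6 tested subunits 4 fell (66.7%) and 1 rose (16.7%), beside 27.9% and 25.9% of all genes. Their median log2 fold change was -0.68 and their median transcript 6611.5 nt. Of protein-coding genes with transcripts of at least 5000 nt, 67.5% fell and 5.64% rose. MED13L (ENSG00000123066, chromosome 12, 115957905 to 116277693, GRCh38), the paralog of MED13, had 24.1, 21.7 and 20.2 CPM (counts scaled to library size by TMM) in SsA replicates 1, 2 and 3, against 55.8, 59.4 and 68.8 CPM in DMSO replicates 1, 2 and 3. Every SsA library was below every DMSO library. The fall was 2.79-fold, with a log2 fold change of -1.48 ± 0.11 (SE, adjusted p in edgeR = 1.28e-04). Its SsA libraries, at 0.545, 0.556 and 0.511 FPKM, lay under the 1 FPKM of the filter. MED13L entered the fit through its DMSO libraries alone, so its direction on the FPKM scale was fixed by the filter. Without an FPKM filter its log2 fold change was -1.42 (adjusted p in edgeR = 1.15e-04).

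MED13 (ENSG00000108510, chromosome 17, 61942605 to 62065278), which links the kinase module to the core, had 57.2, 58.8 and 53.8 CPM in SsA, against 97.2, 102 and 107 CPM in DMSO. The spread within each group was small beside the gap between them. Its fall was 1.8-fold, at -0.85 ± 0.07 on the log2 scale (SE, adjusted p in edgeR = 1.74e-04). MED12 (ENSG00000184634, chromosome X, 71118556 to 71142453), which activates the cyclin C kinase, had 51.4, 37.6 and 35.7 CPM in SsA, against 68.9, 72.9 and 95.2 CPM in DMSO. The highest value of each group came from its library of high mitochondrial share, and the groups did not overlap. MED12 fell 1.9-fold, at -0.93 ± 0.18 (SE, adjusted p in edgeR = 0.00455).

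The enzyme of the module moved less, and its parts moved differently. CDK19 (chromosome 6, 110609978 to 110815958), one of its alternative kinases, had 21.5, 21.8 and 22.2 CPM in SsA, against 33.3, 30.4 and 29.98 CPM in DMSO. The SsA values lay within 1 CPM of each other and below all DMSO values. CDK19 fell by 0.52 ± 0.07 on the log2 scale (SE, adjusted p in edgeR = 0.00147). CDK8 (chromosome 13, 26254104 to 26405238), the other kinase, had 17.9, 16.8 and 15.8 CPM in SsA, against 14.3, 12.8 and 16.4 CPM in DMSO. The groups overlapped, and the log2 fold change of 0.22 ± 0.12 did not pass (SE, adjusted p in edgeR = 0.16).

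CCNC (chromosome 6, 99542387 to 99568825), the cyclin partner of both kinases, had 93.1, 103 and 105 CPM in SsA, against 86.0, 83.6 and 77.8 CPM in DMSO. All SsA values were above all DMSO values. CCNC rose by 0.28 ± 0.07 on the log2 scale (SE, adjusted p in edgeR = 0.0157), and this call was lost without SsA replicate 2 or without SsA replicate 3, with an adjusted p of up to 0.0629. On the TPM scale, which fixes the sum per library, its log2 fold change was -0.082 and did not pass by limma.

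**Figure D2:**
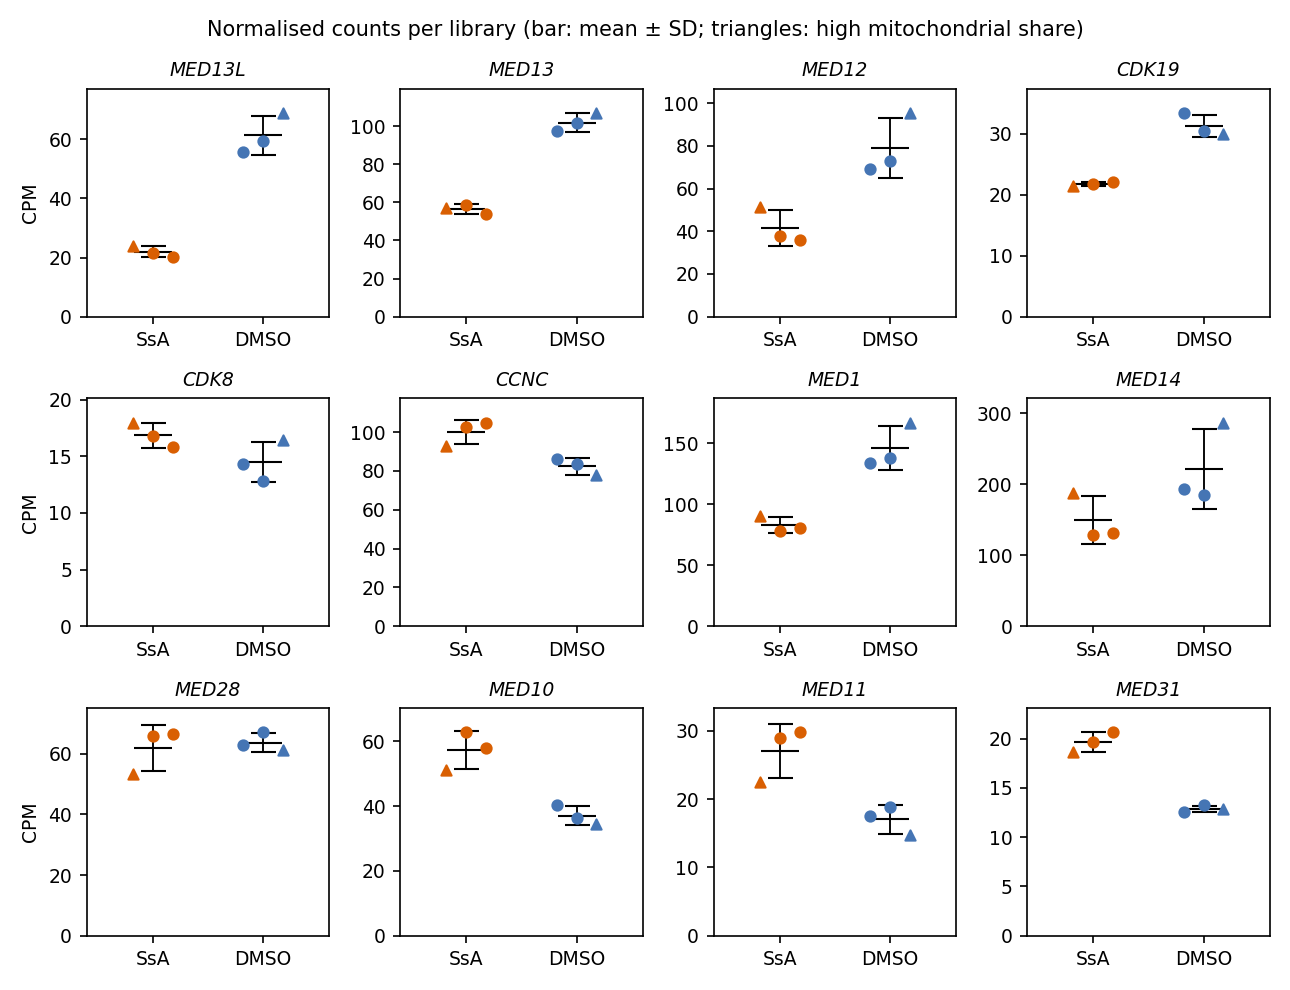
TMM-scaled counts (CPM) in each library for 12 Mediator subunits, SsA left and DMSO right in each panel, with a bar for the mean and SD of 3 libraries; triangles mark SsA replicate 1 and DMSO replicate 3, the libraries of high mitochondrial share. MED13L, MED13, MED12, CDK19 and MED1 lie lower in every SsA library than in any DMSO library, and CCNC, MED10, MED11 and MED31 lie higher.

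The balance between kinase module paralogs can be read within each library. The ratio of MED13L to MED13, from the deposited FPKM, was 16.1%, 14.2% and 14.4% in SsA, against 22.1%, 22.5% and 24.8% in DMSO. For CDK19 to CDK8 the ratio was 55.5%, 60.0% and 65.0% in SsA, against 108%, 110% and 84.8% in DMSO. Both ratios were lower in every SsA library than in any DMSO library. The size of each ratio depends on the lengths behind the deposited FPKM, while its direction between the groups does not. On log2 count ratios the difference was -0.63 for MED13L over MED13 and -0.74 for CDK19 over CDK8. An exact two-sided permutation test gave p = 0.1 for each, the smallest that 3 against 3 allows, and 0.15 after Benjamini-Hochberg adjustment over 3 pairs. In both pairs the first gene has the longer annotated transcript. MED13L has 14615 nt and MED13 10465 nt, and CDK19 has 6246 nt and CDK8 3055 nt. After the correction for transcript length the log2 fold changes were -0.62 for MED13L, -0.16 for MED13, -0.11 for CDK19 and 0.14 for CDK8. Only MED13L passed there, and the ratios above are not corrected for length. MED12L was near the floor, with 40, 28 and 29 counts in SsA, against 56, 70 and 53 counts in DMSO. Its FPKM was 0.879%, 0.629% and 0.742% of that of MED12 in SsA, against 0.607%, 0.69% and 0.576% in DMSO, and the ratios overlapped. The log2 count ratio of MED12L over MED12 differed by 0.26 (exact permutation p = 0.2). The MED12L locus spans several protein-coding genes on the opposite strand, among them P2RY14 and P2RY12. The libraries marked strand, per the labels, but whether the counting used it was not stated. This bears on other members too, as 22 of the 33 overlap an annotated gene on the opposite strand.

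**Figure D3:**
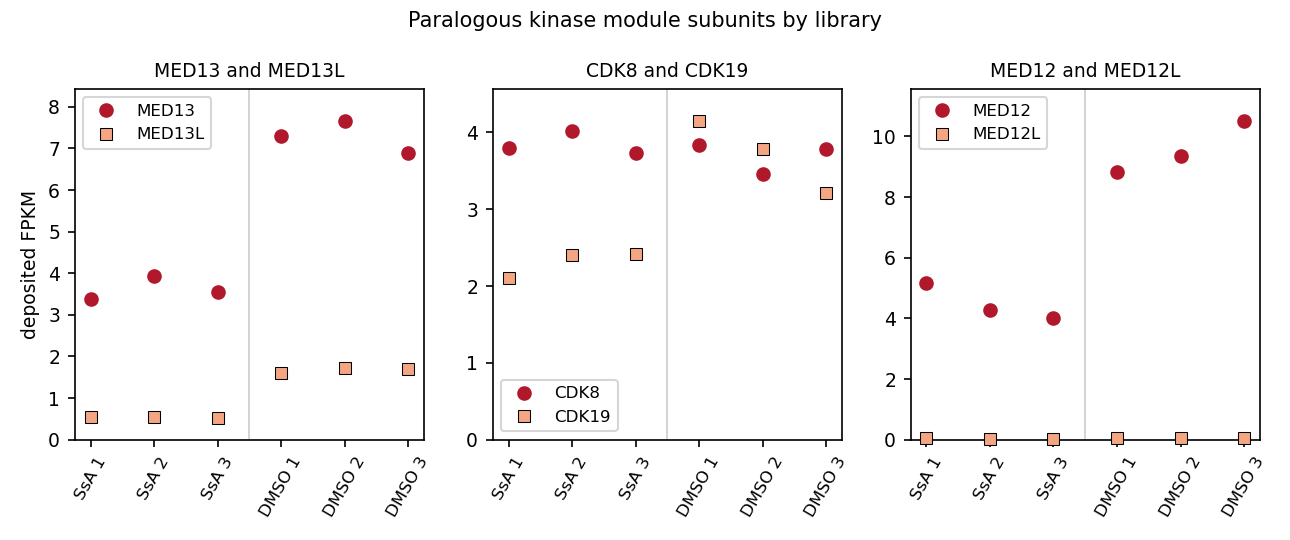
Deposited FPKM of the 3 paralog pairs of the kinase module in each library, SsA left of the grey line and DMSO right of it; circles are MED13, CDK8 and MED12, and squares are MED13L, CDK19 and MED12L. CDK19 lies below CDK8 in each SsA library and above it in DMSO replicates 1 and 2, MED13L lies below MED13 throughout, and MED12L lies near 0 throughout.

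Of the 5 long subunits outside the kinase module, 1 fell (20%) and none rose. Among protein-coding genes with transcripts of at least 5000 nt, 67.5% fell and 5.64% rose. MED1 (ENSG00000125686, chromosome 17, 39404285 to 39451268), the middle subunit through which many nuclear receptors bind Mediator, had 90.3, 78.2 and 80.8 CPM in SsA, against 134, 138 and 167 CPM in DMSO. All SsA values lay well below all DMSO values. It fell 1.76-fold, at -0.82 ± 0.10 on the log2 scale (SE, adjusted p in edgeR = 8.88e-04). The scaffold gene MED14 had 188, 129 and 131 CPM in SsA, against 193, 184 and 286 CPM in DMSO. The value of SsA replicate 1 lay between those of DMSO replicates 1 and 2, so the groups overlapped. The log2 fold change of MED14 was -0.57 ± 0.21 (SE, adjusted p in edgeR = 0.0567). Without SsA replicate 1 and DMSO replicate 3 it was -0.57 (edgeR adjusted p = 7.89e-06), and between those 2 libraries -0.61. That p rests on the small spread of the libraries that remained.

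MED23, the tail subunit that the MAPK-activated factor ELK1 binds, had 44.9, 38.4 and 34.8 CPM in SsA, against 43.2, 42.2 and 47.2 CPM in DMSO, with overlap. The fitted difference was -0.17 ± 0.11 in log2 (SE, adjusted p in edgeR = 0.215). MED17, a core head subunit, had 36.4, 35.4 and 38.0 CPM in SsA, against 38.8, 39.2 and 44.3 CPM in DMSO. The groups did not overlap, yet the log2 fold change of -0.16 ± 0.08 did not pass (SE, adjusted p in edgeR = 0.129). MED17 overlaps the protein-coding gene AP001273.2 on its own strand over 28152 bases, so reads of either may be held in its count. MED28, a small protein with a long annotated transcript (10868 nt), had 53.3, 65.9 and 66.6 CPM in SsA, against 62.9, 67.1 and 61.3 CPM in DMSO. The groups overlapped, with a log2 fold change of -0.04 ± 0.10 (SE, adjusted p in edgeR = 0.743).

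Head and middle subunits with short transcripts gave all the rises outside the kinase module. In the head module 4 of 7 subunits rose (57.1%) and 1 fell (14.3%), with a median log2 fold change of 0.31. Among all genes 25.9% rose and 27.9% fell. Among protein-coding genes with transcripts under 5000 nt, 35.1% rose and 13.6% fell. The median head transcript was 1995 nt. MED11, a small head subunit, had 22.4, 28.9 and 29.8 CPM in SsA, against 17.6, 18.9 and 14.7 CPM in DMSO. It rose by 0.66 ± 0.14 on the log2 scale (SE, adjusted p in edgeR = 0.00747), the largest rise among the members. MED8 rose by 0.56 ± 0.13, with 48.7, 64.5 and 57.9 CPM in SsA, against 41.2, 41.4 and 33.4 CPM in DMSO. MED20, which pairs with MED18 in the movable part of the head, rose by 0.35 ± 0.07, and MED6, at the head-middle contact, by 0.31 ± 0.10 (SE, adjusted p in edgeR = 0.00473 for MED20 and 0.036 for MED6). On log2(FPKM + 1) the calls of MED11, MED8, MED20 and MED6 in the head, and of MED10 in the middle module, were lost (limma adjusted p from 0.0612 for MED10 to 0.482 for MED6). On the TPM scale no member passed as higher, beside 49 of all 11427 genes, and MED20 and MED6 were at -0.014 and -0.054. The call of MED6 held in 1 of the 6 fits that leave out a library, that without SsA replicate 1, with an adjusted p of up to 0.109. MED18 did not pass (0.17 ± 0.17, SE, adjusted p in edgeR = 0.411).

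The head subunit MED22 went the other way. It had 21.96, 24.9 and 24.4 CPM in SsA, against 36.9, 35.9 and 33.5 CPM in DMSO. Every SsA library was below every DMSO library, and the log2 fold change was -0.58 ± 0.08 (SE, adjusted p in edgeR = 0.00135). MED22 pairs with MED11 in the head, and their transcripts moved in opposite directions. The longest annotated transcript is 4367 nt for MED22 and 833 nt for MED11.

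In the middle module 3 of 9 subunits rose (33.3%) and 2 fell (22.2%), beside 25.9% and 27.9% of all genes. Their median log2 fold change was 0.08. MED10 (chromosome 5, 6371874 to 6378547) had 51.2, 62.8 and 58.04 CPM in SsA, against 40.4, 36.2 and 34.6 CPM in DMSO. It rose by 0.63 ± 0.10 on the log2 scale (SE, adjusted p in edgeR = 0.00215). MED31, among the most conserved subunits, had 18.6, 19.7 and 20.6 CPM in SsA, against 12.5, 13.2 and 12.8 CPM in DMSO. The values of each group lay close together, and the rise was 0.61 ± 0.09 (SE, adjusted p in edgeR = 0.00142). MED31 overlaps the protein-coding gene TXNDC17 on the opposite strand over 1231 bases. MED19, through which the repressor REST contacts Mediator, had 20.8, 16.1 and 17.2 CPM in SsA, against 11.6, 13.1 and 13.1 CPM in DMSO, a rise of 0.51 ± 0.13 (SE, adjusted p in edgeR = 0.0122). Leaving out DMSO replicate 1 ended that call (edgeR adjusted p = 0.0529).

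MED26, the middle subunit that recruits elongation factors to the polymerase, fell. It had 10.7, 9.33 and 10.3 CPM in SsA, against 14.2, 14.6 and 16.8 CPM in DMSO. All SsA values were below all DMSO values, and the log2 fold change was -0.59 ± 0.12 (SE, adjusted p in edgeR = 0.00522). MED26 overlaps the protein-coding genes AC008764.1 and AC008764.4 on its own strand, so its counts may hold reads of both. The core middle subunits MED4, MED7, MED9 and MED21 had log2 fold changes of 0.08, -0.15, 0.09 and 0.05, and none of these 4 passed.

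The tail module had 2 falls (22.2%) and no rise among 9 subunits, beside 27.9% and 25.9% of all genes. Its median log2 fold change was -0.08. MED29 had 35.5, 31.0 and 32.5 CPM in SsA, against 38.97, 37.8 and 44.9 CPM in DMSO, and fell by 0.30 ± 0.09 on the log2 scale (SE, adjusted p in edgeR = 0.0302). MED24 had 64.0, 55.3 and 58.2 CPM in SsA, against 66.0, 70.0 and 74.9 CPM in DMSO, and fell by 0.25 ± 0.08 (SE, adjusted p in edgeR = 0.0369). Both calls were fragile. Leaving out 1 library took the adjusted p up to 0.105 for MED29, whose call was lost in 4 of 6 fits, and up to 0.127 for MED24, whose call was kept in 1 of 6, that without SsA replicate 1. MED24 overlaps the protein-coding gene THRA on the opposite strand over 2926 bases.

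The activator-binding subunits of the tail varied with the library. MED15, through which SREBP and SMAD factors bind, had 74.4, 51.3 and 46.98 CPM in SsA, against 61.7, 62.9 and 91.3 CPM in DMSO. Its highest value in each group came from the library of high mitochondrial share, and the groups overlapped. The log2 fold change was -0.32 ± 0.22 (SE, adjusted p in edgeR = 0.244), while without SsA replicate 1 and DMSO replicate 3 it stood at -0.37 (edgeR adjusted p = 3.46e-04). The smaller p rests on the small spread of the libraries that remained. MED16, reported to bind NRF2, and MED25, known as the target of a viral activator, had log2 fold changes of -0.04 and -0.08, with overlapping groups. MED27 (0.23 ± 0.11) and MED30 (0.48 ± 0.19) had higher values in SsA without passing (SE, adjusted p in edgeR = 0.111 and 0.07). Without those 2 libraries MED30 passed (0.65, edgeR adjusted p = 0.0137).

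Set against each other, the kinase module with the long subunits had 5 falls and 1 rise among 11 tested, with a median log2 fold change of -0.52. The short head, middle and tail subunits had 4 falls and 7 rises among 21, with a median of 0.09. Here long means a longest annotated transcript of at least 5000 nt. With kinase module subunits assigned by length alone, 5 of 9 long members fell (55.6%) and none rose, beside 67.5% and 5.64% of 2909 protein-coding genes of that length. Of 23 shorter members 8 rose (34.8%) and 4 fell (17.4%), beside 35.1% and 13.6% of 7131 shorter protein-coding genes. In both length classes the members' shares lay near those of other genes.

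**Figure D4:**
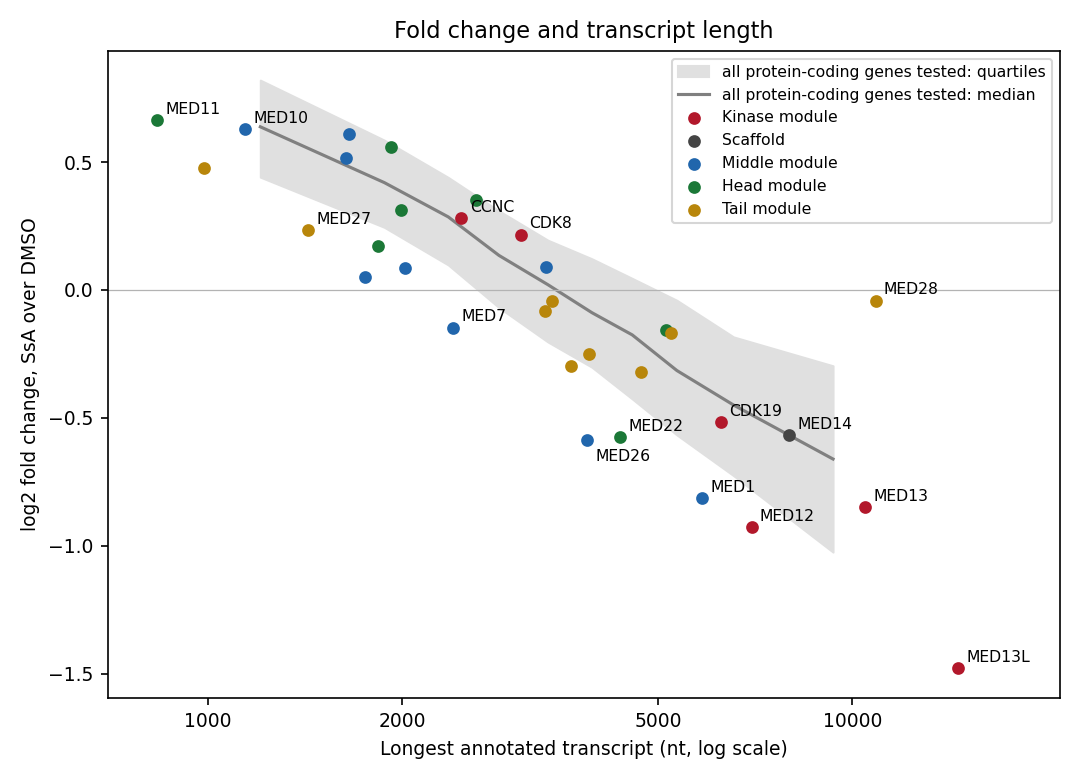
Log2 fold change, SsA over DMSO, of the 32 tested Mediator subunits against the longest annotated transcript (nt, log axis), coloured by module, over the median (line) and quartiles (band) of all tested protein-coding genes in 10 groups of equal size by length. Short subunits such as MED11 (0.66 at 833 nt) lie high and MED13L (-1.48 at 14615 nt) lies lowest, while MED28 (-0.04 at 10868 nt) lies above the band.

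Across the 32 members longer transcripts had lower log2 fold changes (Spearman rho = -0.87, a description over genes of the same 6 libraries). Over 10040 protein-coding genes rho was -0.72. Within 10 groups of genes of like length, 19 members lay between the quartiles of their group, 10 below and 3 above. By the meaning of quartiles, as many genes of a group lie outside them as between them, and as many below as above. MED13L was below, at -1.48, where the group of longest genes had a median of -0.66 and a lower quartile of -1.02. So were MED12, at -0.93 where the median was -0.45, and MED1, at -0.82 where it was -0.32. MED26 and MED22, at -0.59 and -0.58, lay under medians of -0.09 and -0.18 and were below their groups. Also below were MED4, MED7, MED18, MED21 and MED27, all with short transcripts and none of them called. MED13, CDK19 and CCNC lay between the quartiles. MED28 was above its group, at -0.04 where the upper quartile was -0.30. MED20 (0.35) and MED31 (0.61) also lay above, where the upper quartiles were 0.31 and 0.59.

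A correction that removed the smooth trend of each library on transcript length left 4 members lower and 1 higher, beside 15.3% and 15.5% of all genes (30.8% in either direction). The falls that stayed were MED13L (-0.62 ± 0.08), MED1 (-0.45 ± 0.09), MED26 (-0.50 ± 0.11) and MED22 (-0.42 ± 0.08) on the log2 scale (SE, adjusted p in edgeR = 0.00186, 0.00922, 0.0157 and 0.01). MED28 passed as higher only with such a correction, at 0.67 ± 0.12 (SE, adjusted p in edgeR = 0.00611). MED13 (-0.16) and MED12 (-0.45) no longer passed, with an edgeR adjusted p of 0.0888 and 0.0672, and none of the 8 rises did. The same correction without SsA replicate 1 and DMSO replicate 3 gave 3 members higher and 10 lower, beside 26.5% and 24.6% of all genes (51.1% in either direction). There MED12 (-0.48, adjusted p in edgeR = 8.97e-05), MED24 (-0.18), MED29 (-0.24) and MED8 (0.18, adjusted p in edgeR = 0.0364) kept their calls. With the length that lies behind the deposited FPKM in place of the longest transcript, 8 members were lower and 3 higher, beside 19.4% and 19.6% of all genes (39% in either direction). MED13 (-0.34), MED12 (-0.68) and CDK19 (-0.26) then stayed lower with MED13L (-0.60), and CCNC stayed higher (0.37). MED28 (0.40) and MED17 (0.47) were higher. The calls of MED13, CDK19 and CCNC thus differed with the length used, and that of MED12 with the length and with the libraries used.

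All 17 calls were kept with the same sign without SsA replicate 1 and DMSO replicate 3. In the 4 other libraries 9 members rose and 12 fell, beside 33.3% and 34.5% of all genes (67.8% in either direction). Those libraries were closely alike within each group, with a chi-squared value per gene of 15.5 for DMSO and 15.2 for SsA. Because their spread is so small, this fit cannot show that the calls are independent of the libraries of high mitochondrial share. All 17 also had the same sign in the pair of high share, SsA replicate 1 over DMSO replicate 3, which has no replicate. The median of the kinase module and long subunits was -0.56 in the 4 libraries, and that of the short subunits 0.07. Of the 17, 12 were called in each of the 6 fits that leave out 1 library: MED13L, MED13, MED12, CDK19, MED1, MED22 and MED26 as lower, and MED8, MED10, MED11, MED20 and MED31 as higher. The share of all called genes that kept their call or sign in these fits was not counted. The 17 and 12 that did so are thus not read as particular to Mediator.

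Levels between subunits are compared per length, on the FPKM scale. The length behind the deposited FPKM does not follow the longest transcript. CPM per unit of FPKM in DMSO averaged 36.4 for MED13L (14615 nt) and 14.0 for MED13 (10465 nt). It averaged 18.4 for MED17 (5142 nt) and 8.21 for MED12 (6977 nt). The order of subunits below thus depends on that length. In SsA the subunit transcript of highest mean was MED10, at 25.1 ± 4.05 FPKM, followed by MED8 (17.2 ± 3.41), MED11 (14.95 ± 3.09), CCNC (14.5 ± 1.81) and MED14 (12.4 ± 1.88; SD, n = 3). Library by library, MED10 lay above MED8 and MED8 above MED11 in every SsA library, while the other neighbours changed order. On the log2(FPKM + 1) scale limma called 2 members higher and 11 lower, beside 8% and 32.6% of all genes (40.6% in either direction). In DMSO the highest levels were MED14 (20.5 ± 3.30), MED10 (18.1 ± 2.73), MED1 (15.3 ± 0.532), CCNC (13.4 ± 1.77) and MED8 (13.1 ± 2.57; SD, n = 3). Of these neighbours only MED1 and CCNC kept their order in every DMSO library. MED1 was the ninth highest of 33 in SsA and the third in DMSO, and MED12 the 19th in SsA and the ninth in DMSO. On this scale the lowest tested subunit in both groups was MED13L, at 0.537 ± 0.0235 FPKM in SsA and 1.68 ± 0.0596 FPKM in DMSO. The 7 kinase module genes together gave 27.5, 30.7 and 29.9 FPKM in SsA, against 40.4, 40.3 and 37.5 FPKM in DMSO. The 7 head genes gave 46.7, 64.7 and 61.4 FPKM in SsA, against 54.6, 54.6 and 40.3 FPKM in DMSO, with overlap.

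Factors that work with Mediator are given as lists beside the shares of all genes, 25.9% higher and 27.9% lower. Of 33 general transcription factor genes 13 rose (39.4%) and 5 fell (15.2%), together 54.5% beside 53.8% of all genes, with a median log2 fold change of 0.07 and a median transcript of 2731 nt. GTF2A2, a subunit of TFIIA, rose by 0.73 ± 0.11, and GTF2E2, a subunit of TFIIE, by 0.54 ± 0.09. TAF1, the largest subunit of TFIID, fell by 1.03 ± 0.09, and GTF2A1, the other TFIIA gene on the list, by 0.51 ± 0.06 (SE, adjusted p in edgeR from 2.17e-04 for TAF1 to 0.00321 for GTF2E2). Of 23 pause release and elongation factor genes 3 rose (13%) and 11 fell (47.8%), with a median of -0.20. Their median transcript was 4507 nt. The super elongation complex scaffold genes AFF1 and AFF4 fell by 1.40 ± 0.12 and 0.91 ± 0.07, CCNT1, the cyclin of P-TEFb, fell by 0.54 ± 0.06, and SUPT4H1, a subunit of DSIF, rose by 0.54 ± 0.06 (SE, adjusted p in edgeR from 1.76e-04 for AFF4 to 7.06e-04 for CCNT1). After the correction for transcript length these lists had 3 rises and 2 falls among 33, and 2 rises and 8 falls among 23. Among all genes 15.5% rose and 15.3% fell with that correction. Of the 8 genes named, TAF1, GTF2A2, AFF1 and AFF4 kept their calls under it, while GTF2A1, GTF2E2, CCNT1 and SUPT4H1 did not pass (adjusted p in edgeR from 0.275 for GTF2A1 to 0.492 for CCNT1).

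Of 7 genes of cohesin and its loader, which Mediator is known to meet at enhancers, 6 fell (85.7%) and none rose, with a median of -0.51, beside falls in 27.9% of all genes and in 67.5% of protein-coding genes with transcripts of at least 5000 nt. NIPBL, the loader, fell by 0.78 ± 0.10, SMC1A by 0.63 ± 0.09, SMC3 by 0.55 ± 0.09 and MAU2 by 0.51 ± 0.07 (SE, adjusted p in edgeR from 7.84e-04 for NIPBL to 0.00289 for SMC3). The median transcript of this list was 6045 nt, and 2 of the 6 falls, SMC3 and MAU2, stayed after the length correction. With that correction 15.3% of all genes fell. Of 15 tested genes for activators and enzymes that bind named subunits 9 fell (60%) and none rose, with a median of -0.42, beside the same 27.9% and 67.5%. GLI3 and REST, both known partners of the kinase module, fell by 1.36 ± 0.22 and 0.65 ± 0.09. The nuclear receptor genes PPARA and RXRA fell by 1.003 ± 0.17 and 0.64 ± 0.10 (SE, adjusted p in edgeR from 0.0011 for REST to 0.00293 for PPARA). Of these 4 only GLI3 stayed lower after the length correction (-0.80, edgeR adjusted p = 0.0238). GLI3 and PPARA were under 1 FPKM in every SsA library and passed the filter through their DMSO libraries alone. The direction of both on the FPKM scale was thus fixed by the filter.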

How the data were processed

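RNA-seq of 6 libraries was used, 3 with saikosaponin A and 3 with DMSO. The submitters' processing notes name GRCh38, StringTie 1.3.4d, HISAT2 2.0.4 and cutadapt 1.9, without the counting step, its strand setting or the annotation. Per the file headers, the deposited table holds counts and FPKM values for every library. The deposited counts were taken as not normalised. For 96.5% of tested genes count over FPKM kept 1 fixed ratio between libraries (within 1%), so the deposited FPKM rests on 1 length per gene. The SA columns were taken as saikosaponin A.

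The counts, TMM-scaled, were fitted in edgeR 4.0.16 (R 4.3.3), without a replicate block, over 11427 genes with at least 1 FPKM in at least 3 libraries. The biological coefficient of variation was 15.3%. A standard error is the log2 fold change over the square root of F. DESeq2 1.42.0 and limma 3.58.1 on log2(FPKM + 1), log2(FPKM + 0.1) and log2(TPM + 1) were alternatives. Transcript length is the longest in GENCODE 29, matched by gene ID for 28679 of 29435 rows. The length correction removed a loess trend (span 0.3) per library through offsets. Long subunits were to be set by protein length; with no protein table used here, transcripts of at least 5000 nt were taken, as foreseen. Motif letters were chosen after the data were seen. Members, lists and tests were chosen with earlier results of these data known. Named are all members, and 4 genes of smallest p per partner list. Scripts were tested on simulated counts. Precision from counting is high at these depths, and the spread between libraries limits it.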

Additional observations from a re-analysis of the deposited data

How the results depend on the processing

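Over 48 named genes, 685 of 893 values under alternatives kept their direction and side of the threshold, 123 lost the call and 17 gained it in the same direction, and 68 changed sign, 49 of them with no call in either fit. The higher and lower members numbered 8 and 9. On log2(FPKM + 1) 2 rose, on log2(FPKM + 0.1) 2 and on the TPM scale 0 by limma, beside 8% of all genes on the first of these, where the median of all genes was -0.11 (-0.31 on the TPM scale), so that rises are relative to the TMM scaling. The length correction gave 1 and 4, with the replicate block 1 and 2, without SsA replicate 1 and DMSO replicate 3 it gave 3 and 10, and with the FPKM length 3 and 8. Leaving out 1 library gave 6 to 9 higher and 7 to 12 lower, beside 2005 to 3153 and 2594 to 3249 of all 11427 genes.

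The median of the kinase module and long subunits (-0.52) was -0.93 with a mean FPKM of at least 5 (which left 19 members), -0.66 on log2(FPKM + 0.1), -0.80 on the TPM scale, -0.014 with the length correction, -0.011 with the replicate block and length correction, 0.0028 with the length correction in the 4 libraries, -0.19 with the FPKM length, and -0.54 to -0.35 when 1 library was left out. That of the short subunits (0.09) turned to -0.054 and -0.074 on the 2 FPKM scales, -0.25 on the TPM scale, -0.11 with the length correction, -0.10 with the block and length correction and -0.15 with the correction in the 4 libraries. Splitting by coding length of at least 3000 nt gave -0.54 and 0.09. The planned split by transcript length in place of protein length is the one reported, so it gives no separate value.

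All genes called higher and lower (2956 and 3190) became 1666 and 1762 with a mean FPKM of at least 5, 1770 and 1744 with the length correction, 914 and 964 with the block and length correction, and 914, 886 and 49 higher on the FPKM + 1, FPKM + 0.1 and TPM scales. Partner list rises (16) became 6 with a mean FPKM of at least 5, 5, 4 and 0 on those 3 scales, 7 with the length correction, 9 with the block, 4 with the block and length correction, and 8 to 15 without 1 library. Partner list falls (31) became 14 with the length correction, 3 with the block and length correction and 19 with the FPKM length.

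Signs turned on the TPM scale for CCNC (-0.082), MED20 (-0.014), MED6 (-0.054), MED18 (-0.18), CDK8 (-0.13), MED4 (-0.27), MED9 (-0.25), MED21 (-0.31) and MED27 (-0.13). On log2(FPKM + 1) and log2(FPKM + 0.1) they turned for MED4 (-0.072 and -0.078), MED9 (-0.054 and -0.074) and MED21 (-0.10 and -0.11). The length correction, alone, with the replicate block and in the 4 libraries, turned MED17 (0.12, 0.12 and 0.18), MED23 (0.12, 0.11 and 0.059), MED28 (0.67, 0.66 and 0.73), MED18 (-0.23, -0.22 and -0.24), MED6 (-0.043, -0.046 and -0.043), MED4 (-0.26, -0.26 and -0.28), MED21 (-0.37, -0.37 and -0.36), MED27 (-0.25, -0.27 and -0.43) and SMC1A (0.04, 0.039 and 0.028). It turned MED30 alone and with the block (-0.11 and -0.10), and MED19 (-0.036) and MED14 (0.0028) in the 4 libraries. With the FPKM length MED17 (0.47), MED15 (0.096), MED25 (0.18), MED23 (0.078), MED28 (0.40), MED18 (-0.26), MED4 (-0.24), MED21 (-0.10) and MED30 (-0.044) turned. With a mean FPKM of at least 5 MED4 (-0.032) and MED21 (-0.067) turned, without a filter MED28 (0.022) and MED16 (0.017), and without SsA replicate 1 and DMSO replicate 3 MED28 (0.00067). Leaving out 1 library gave -0.34 to 0.12 for MED16, -0.012 to 0.13 for MED21, -0.19 to 0.021 for MED25, -0.096 to 0.055 for MED28 and -0.020 to 0.17 for MED4. The cause was not tested, apart from what each correction removes by construction.

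Same-numbered replicates did not all deviate together (correlations -0.34, 0.29 and -0.35), so the numbers were not taken as pairs. SsA replicate 1 deviated with DMSO replicate 3 (0.55), and SsA replicates 2 and 3 with DMSO replicates 1 and 2 (0.215 to 0.287). A block by replicate number does not follow that grouping. The replicate block gave 6 members higher and 7 lower, beside 2074 and 2542 of all 11427 genes. Corrections in the 4 libraries, with the FPKM length and the coding split were chosen after the data were seen.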

Other observations

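Some subunits were high in both libraries of high mitochondrial share, SsA replicate 1 and DMSO replicate 3, whatever the treatment. MED16 had 29.04 CPM in SsA replicate 1, against 18.1 and 16.1 CPM in the other SsA libraries, and 25.1 CPM in DMSO replicate 3, against 19.1 and 21.0 CPM in the other DMSO libraries. MED14, MED12 and MED15 were also highest in those libraries within each group. MED18 went the other way, with 15.3 CPM in SsA replicate 1, against 21.1 and 19.98 CPM, and 13.5 CPM in DMSO replicate 3, against 18.5 and 17.9 CPM. MED4, MED8, MED10 and MED11 were lowest in DMSO replicate 3 and in SsA replicate 1 within their groups. The part of the mitochondrial share in these values was not tested.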
